A study of Homo sapiens with 6 samples.

Results

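The G2/M and mitosis genes described here are 34 genes whose products carry a cell from late G2 through chromosome segregation and cytokinesis. They were named by symbol, not by measured values. A gene was read by the brightest of its array probe sets that are annotated to that gene alone, going by the mean over all 6 arrays. Of the 34, 33 were read in this way and all 33 passed the filter on dim probe sets, out of 13405 genes tested and 18132 genes on the array. PTTG1, which encodes securin, is the other member. Its probe set is annotated to several genes, and it is not analysed here. The arrays were run on total RNA from SH-SY5Y, an established human cell line from a neuroblastoma, a tumour of the sympathetic lineage. In the manganese group, 3 cultures were exposed to 100 µM manganese for 24 h, a dose given in the labels as the median lethal concentration divided by 5. The control group consisted of 3 untreated cultures. Both groups are the same line in the same medium, MEM and F12 with fetal bovine serum, and no genetic change separates them. The arrays of each group are called biological replicates and numbered 1 to 3, but nothing states whether the cultures were started on separate days, so p-values measure the spread between these arrays only.

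Entry into mitosis is driven by CDK1 bound to A- and B-type cyclins, switched on by CDC25 phosphatases. Polo-like and Aurora kinases then build the spindle, kinetochore proteins and kinesins attach and move the chromosomes, and the spindle checkpoint holds back the anaphase-promoting complex until attachment is complete. Transcripts of these genes accumulate together late in the cell cycle and are low in resting cells, so that their summed level is widely used as a measure of proliferation. In bulk RNA, fewer cells in G2/M and less of each transcript per cell cannot be told apart. Much of this shared timing is known to run through a promoter element called the cell cycle genes homology region (CHR), bound by the MuvB complex with B-MYB, FOXM1 or the DREAM repressors, and often accompanied by CCAAT boxes bound by NF-Y.

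The promoters of 6 members are shown because the letters of both elements can be read in them. They come from RefSeq (GRCh38.p14), and each is the 150 bases upstream of an annotated start, written 5′ to 3′ on the strand of the gene. Capitals mark the CHR letters TTTGAA or TTTAAA and the CCAAT letters, searched on both strands, so that CCAAT may read ATTGG and TTTGAA may read TTCAAA. MKI67 lies on the minus strand at chr10:128126424-128126573, PRC1 on the minus strand at chr15:90994536-90994685 and CCNB2 on the plus strand at chr15:59104996-59105145. KIF20A lies on the plus strand at chr5:138178962-138179111, PLK1 on the plus strand at chr16:23678739-23678888 and CDK1 on the plus strand at chr10:60778328-60778477.
MKI67: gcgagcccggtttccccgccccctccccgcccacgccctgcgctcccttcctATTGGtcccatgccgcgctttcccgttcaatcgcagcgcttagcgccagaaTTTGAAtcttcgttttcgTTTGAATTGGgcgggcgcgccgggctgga
PRC1: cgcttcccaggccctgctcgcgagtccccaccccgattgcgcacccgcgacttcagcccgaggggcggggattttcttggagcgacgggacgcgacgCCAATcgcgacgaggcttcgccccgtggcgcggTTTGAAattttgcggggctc
CCNB2: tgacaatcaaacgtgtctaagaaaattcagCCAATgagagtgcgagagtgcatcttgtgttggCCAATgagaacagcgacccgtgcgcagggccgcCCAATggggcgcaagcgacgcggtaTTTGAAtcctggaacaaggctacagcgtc
KIF20A: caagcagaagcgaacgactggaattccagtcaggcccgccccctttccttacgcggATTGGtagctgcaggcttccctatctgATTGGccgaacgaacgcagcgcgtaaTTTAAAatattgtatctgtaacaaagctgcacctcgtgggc
PLK1: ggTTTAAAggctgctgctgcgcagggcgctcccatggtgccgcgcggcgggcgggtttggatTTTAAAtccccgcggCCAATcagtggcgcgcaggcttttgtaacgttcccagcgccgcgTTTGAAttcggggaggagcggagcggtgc
CDK1: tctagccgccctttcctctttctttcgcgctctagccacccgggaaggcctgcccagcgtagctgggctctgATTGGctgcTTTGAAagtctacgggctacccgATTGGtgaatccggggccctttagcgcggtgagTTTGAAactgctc
The last CHR letters began 29 bases upstream of the start in MKI67, CCNB2 and PLK1, 20 bases upstream in PRC1, 41 in KIF20A and 13 in CDK1. In MKI67 these letters share 1 run with an ATTGG. The CDK1 bases shown precede another start and lie almost wholly inside the gene, which is annotated from 60778331. In its other window the CHR letters began 161 and 131 bases upstream. In the comparison of manganese with control, MKI67, PRC1, CCNB2 and KIF20A had negative differences, PLK1 was close to 0 and CDK1 was positive. These 6 were picked to show the letters. CDK1 was the only positive one of the 19 tested members with CHR letters starting within 70 bases upstream of a start.

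Promoter windows of 300 bases, from 250 before to 50 after a start, were listed for 29 of the 34 members, 38 windows in all since 5 members had more than 1. AURKA, BIRC5, TPX2, TTK and UBE2C were not matched. CHR letters lay in 73.7% of the members' windows, against 64.8% of those of 47 other mitosis genes, 14.5% of those of 42 G1/S and replication genes and 24.0% of the 35116 windows of all genes. CCAAT letters lay in 78.9% of the members' windows, 59.3% of those of the other mitosis genes, 56.4% of those of the G1/S genes and 34.6% of all windows. CHR letters starting within 70 bases upstream of the start, a distance chosen after the positions had been seen, were found in 52.6% of the members' windows, against 37.0% of those of the other mitosis genes, 7.27% of those of the G1/S genes and 6.20% of all windows. The 19 tested members with such letters had a median log2 difference between manganese and control of -0.30, and 18 of the 19 differences were negative. The 9 tested members without them had a median of -0.16, with 6 negative. The differences ran from -0.69 to 0.30 with such letters and from -0.58 to 0.58 without them. Whether these groups of members differ was not tested. A match of letters is a description of the window and does not show a bound site.

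**Figure D1:**
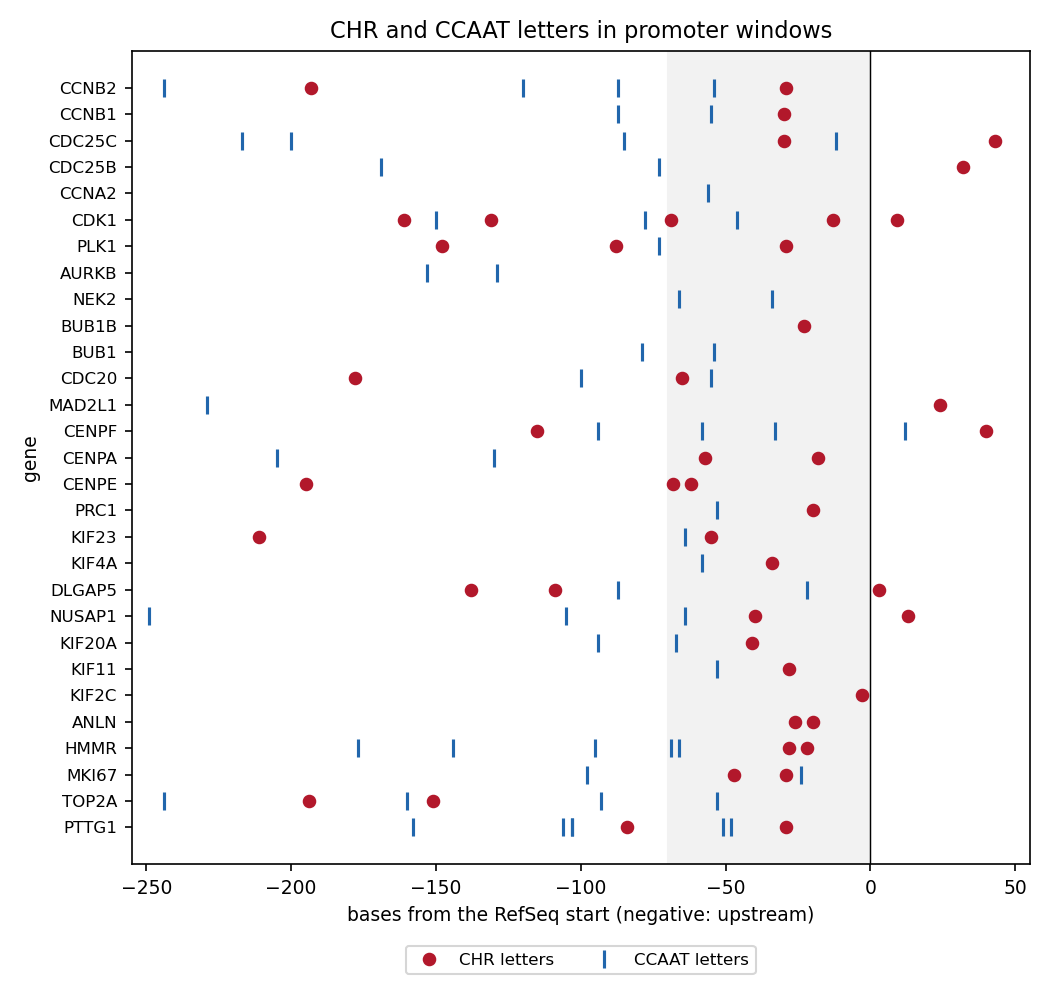
Positions of CHR letters (red dots) and CCAAT letters (blue ticks) in the RefSeq promoter windows of 29 members, in bases from the annotated start, with all windows of a gene on 1 row. The shaded span covers the 70 bases upstream of the start, where 20 of the 38 windows held CHR letters.

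Of the noradrenergic markers fixed for the line, 10 could be read, and all 10 lay above the 40th percentile of every array, PHOX2A, HAND2, GATA3, DBH and TH among them. Their mean log2 value was between 10.72 and 10.77 on the manganese arrays and between 10.76 and 10.78 on the control arrays. Of 12 markers of mesenchymal-type neuroblastoma cells, 8 also lay above that percentile on every array, namely TWIST1, ACTA2, FOSL2, SNAI2, COL1A1, NOTCH2, FOSL1 and PRRX1. TWIST1 was at 12.03, 12.00 and 12.03 with manganese and 12.03, 12.12 and 11.87 in controls. The other 4, COL3A1, LUM, CD44 and YAP1, lay below it on all 6 arrays. The mean of the 12 was between 5.48 and 5.56 with manganese and between 5.44 and 5.45 in controls. The arrays themselves were not alike within the control group. Poly(A) spike-in, control RNA put into each sample before labelling, was read by 12 probe sets that averaged 7.80 to 7.91 on the 3 manganese arrays and 7.79 on control 2, but 6.14 on control 1 and 5.81 on control 3. Across the 13405 genes, which are not independent replicates, pairs of manganese arrays had r of 0.993 to 0.995 and pairs of control arrays 0.975 to 0.992. Pairs of a manganese and a control array had r of 0.967 to 0.994. Control 1 reached at most 0.981 with any other array, while the highest r of control 2, 0.994, was with a manganese array. The place of these controls is thus not particular to the members.

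No member passed the test of manganese against control. Of all genes tested, 0.142% were called at a limma adjusted p under 0.05, and the smallest adjusted p among the 33 members was 0.332, for MKI67. At an unadjusted p under 0.05 there were 6 members lower in manganese, or 18.2% of the 33 against 6.85% of all genes, and 1 member higher, against 5.98% of all genes. These 7 became 17 without control 2, 1 without manganese 1 and 2 without manganese 2, where all genes at that p made up 22.5%, 6.21% and 7.97%. The 3 manganese arrays lay entirely below the 3 control arrays for 7 members, which is 21.2% of the 33 against 9.27% of all genes, and for no member did they lie entirely above, as they did for 10.5% of all genes. In either direction the share was 21.2% of the members and 19.8% of all genes. Negative differences numbered 28 of 33, or 84.8% against 45.9% of all genes. The median difference was -0.19 on the log2 scale for the members and 0.02 for all genes. The size of the median depended on which control was used, as described below.

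**Figure D2:**
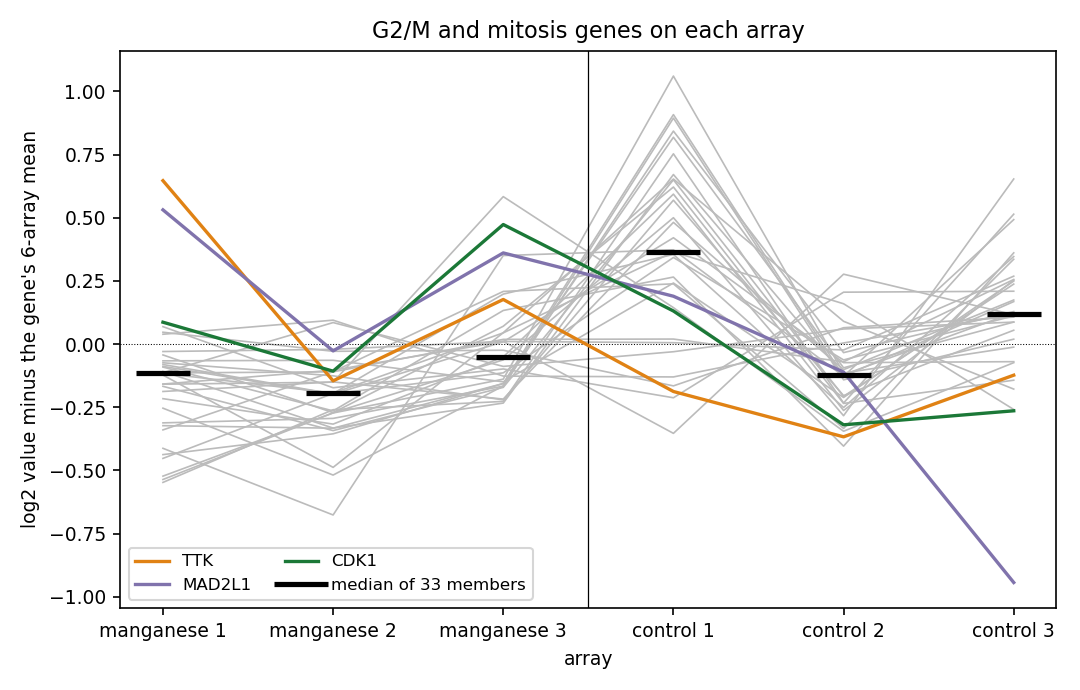
Log2 value of each of the 33 members on each array minus that gene's mean over the 6 arrays, with grey or coloured lines joining the values of 1 gene and black bars at the median of the members. The medians lie between -0.20 and -0.05 on the manganese arrays, and at 0.36, -0.12 and 0.12 on control 1, control 2 and control 3.

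The control arrays differed among themselves by more than the 2 groups differed. Relative to each gene's mean over the 6 arrays, the members' median was -0.12, -0.20 and -0.05 on manganese 1 to 3. On control 1, control 2 and control 3 it was 0.36, -0.12 and 0.12. Control 2 therefore lay among the manganese arrays, and control 1 and control 3 lay above all 4. The median difference of control 1 minus control 2 was 0.56 over the members and -0.02 over all genes, and that of control 3 minus control 2 was 0.24 over the members and 0.00 over all genes. Control 1 was the highest and control 2 the lowest of the controls, with control 3 between them, for 17 of the 33 members. This is 51.5% of the members, against 22.2% of all genes. The span of the 3 control arrays was larger than the difference between the group means for 32 of the 33 members and for 11571 of the 13405 genes. The median SD was 0.12 over the manganese arrays and 0.35 over the control arrays for the members, and 0.11 and 0.19 for all genes.

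Set against each control array in turn, the mean of the manganese arrays gave different pictures. The median over the members was -0.50 against control 1, -0.06 against control 2 and -0.30 against control 3, while the median over all genes was 0.05, 0.01 and -0.005. The manganese mean lay below control 1 for 26 members, which is 78.8% against 43.7% of all genes. It lay below control 2 for 21 members, or 63.6% against 48.4% of all genes, and below control 3 for 27, or 81.8% against 51.0%. It lay below all 3 control arrays for 16 members, or 48.5% against 19.9% of all genes, and above all 3 for 3 members, or 9.09% against 23.6%. Those 3 are MAD2L1, TTK and CDK1. With control 1 as the sole control, assumed to vary like the manganese arrays, limma called 16 of the 33 members, but it also called 25.7% of all genes. With control 2 or control 3 as the sole control it called no member. At an unadjusted p under 0.05 there was 1 member against control 2, or 3.03% against 9.22% of all genes, and there were 14 against control 3, or 42.4% against 17.6% of all genes. Control 1 and control 3, the arrays on which the members were highest, were also the arrays with low poly(A) spike-in, and the part of this in the result was not tested.

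**Figure D3:**
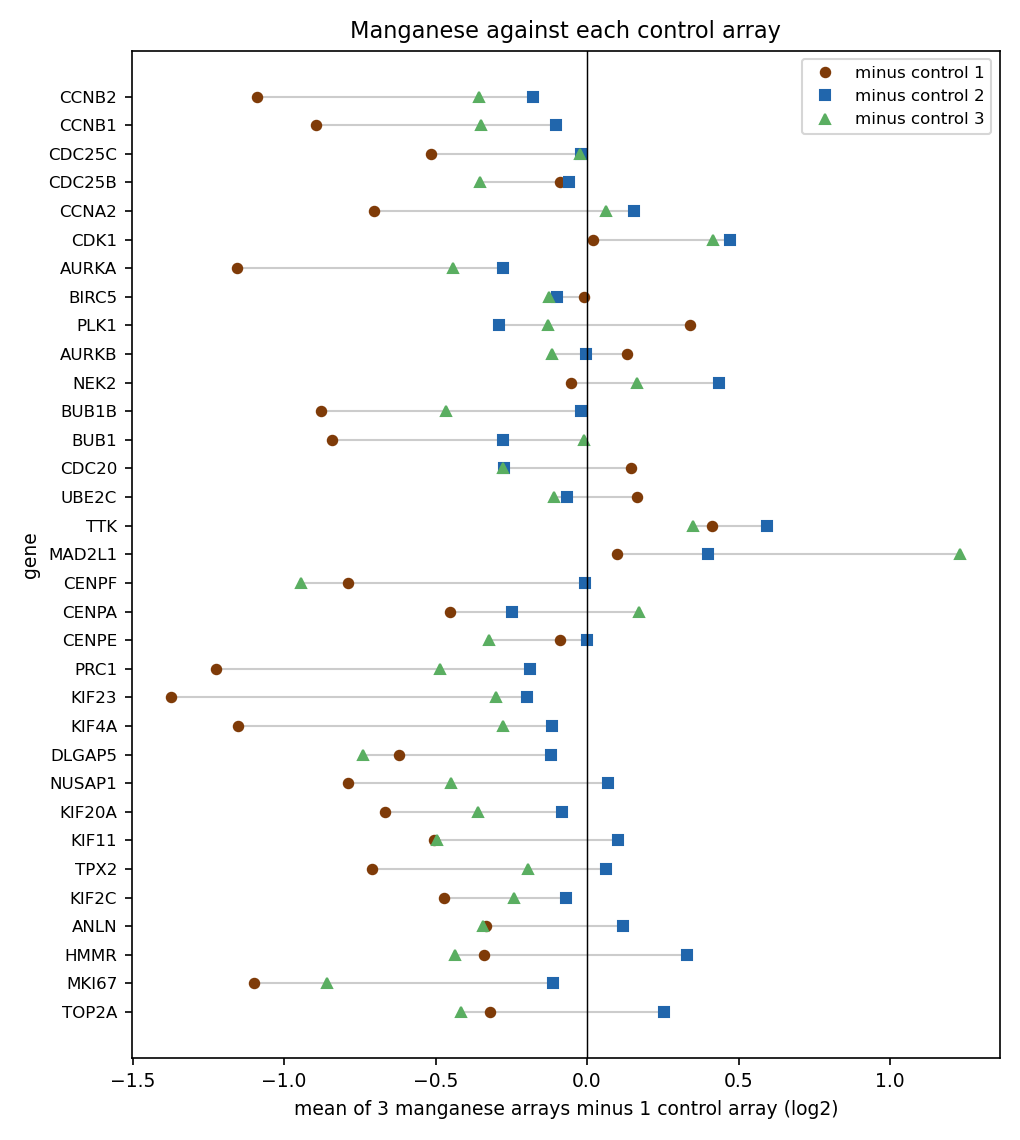
Mean of the 3 manganese arrays minus each single control array for every member, on the log2 scale, ordered by role. Differences from control 2 (blue squares) centre on -0.06 and differences from control 1 (brown dots) on -0.50, and MAD2L1, TTK and CDK1 lie to the right of 0 against all 3 controls.

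Among the cyclins, CDK1 and the CDC25 phosphatases, 5 of 6 differences were negative, with a median of -0.18, and none passed the test. CCNB2, which encodes cyclin B2, had log2 values of 8.11, 8.10 and 8.27 on the manganese arrays, against 9.25, 8.33 and 8.52 on the controls. The groups did not overlap, but control 2 lay only 0.06 above the highest manganese array. The difference was -0.54 ± 0.22 (SE, limma adjusted p 0.373), a 0.687-fold level. CCNB1, the main mitotic cyclin, was at 9.25, 9.02 and 9.12 with manganese, against 10.02, 9.23 and 9.48. Here control 2 lay within the manganese values, and the difference was -0.45 ± 0.20 (SE, limma adjusted p 0.392). CDK1, the kinase that both cyclins activate, was at 8.54, 8.34 and 8.92 with manganese against 8.58, 8.13 and 8.19. Control 1 was above manganese 1 and manganese 2, and the difference was 0.30 with a 95% interval from -0.12 to 0.72. CCNA2, which encodes cyclin A2, differed by -0.16 and by 0.15 against control 2. CDC25B and CDC25C, which remove the inhibitory phosphates from CDK1, differed by -0.17 and -0.19, and the 5 probe sets of CDC25B ranged from -0.18 to 0.23.

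The mitotic kinases were not uniform. AURKA, the centrosomal Aurora kinase, was at 7.56, 7.29 and 7.64 with manganese, against 8.65, 7.78 and 7.94 in controls. All 3 manganese arrays were below all 3 controls, the difference was -0.63 ± 0.23 (SE, limma adjusted p 0.335), and against control 2 it was -0.28. AURKB, the Aurora kinase of the chromosomal passenger complex, was at 9.22, 9.28 and 9.06 with manganese, against 9.06, 9.19 and 9.30. The groups covered the same range, and the difference was 0.00 with a 95% interval from -0.27 to 0.27. BIRC5, which encodes survivin in that complex, had values of 10.67, 10.87 and 10.69 against 10.75, 10.84 and 10.87, and differed by -0.08 (95% interval -0.33 to 0.17). Its 11 passing probe sets ranged from -0.26 to 0.06. PLK1, the Polo-like kinase of mitotic entry, was at 7.37, 7.37 and 7.41 with manganese, against 7.04, 7.67 and 7.51. The manganese arrays lay within 0.04 of one another between the controls, and control 1 was the lowest of the 6, the reverse of its place for most members. NEK2, a centrosome-separating kinase, was at 6.47, 6.48 and 7.21 with manganese and 6.78, 6.29 and 6.56 in controls, so that manganese 3 alone was high. Its difference was 0.18 at the probe set that stands for it and -0.20 at the other one of its 7 that passed the filter.

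Spindle checkpoint genes and regulators of the anaphase-promoting complex pointed in both directions. TTK, the checkpoint kinase also called MPS1, was at 6.66, 5.86 and 6.19 with manganese, against 5.82, 5.64 and 5.89 in controls. Manganese 2 lay below control 3, and the difference was 0.45 ± 0.20 (SE, limma adjusted p 0.388). MAD2L1, which encodes the checkpoint protein MAD2 that binds CDC20, was at 10.49, 9.94 and 10.32 with manganese, against 10.15, 9.85 and 9.02. Control 3 stood far below the other 5 arrays, and the difference was 0.58 ± 0.28 (SE, limma adjusted p 0.430), or 0.10 against control 1 and 1.23 against control 3. The 3 MAD2L1 probe sets that passed the filter were at 0.58 to 0.71, and a dim one that did not pass was at 0.05. The checkpoint genes BUB1 and BUB1B had negative differences. BUB1B, which encodes BUBR1, was at 6.89, 6.72 and 6.89 with manganese and 7.71, 6.85 and 7.30 in controls, a difference of -0.45, of which -0.02 was left against control 2. BUB1, the kinetochore kinase, was at 5.72, 5.36 and 5.89 with manganese and 6.50, 5.93 and 5.67 in controls, a difference of -0.38, and -0.01 against control 3. CDC20, the activator that the checkpoint restrains, was at 10.26, 10.02 and 10.10 with manganese and 9.98, 10.40 and 10.40 in controls. Control 1 was its lowest array, and its 3 probe sets ranged from -0.46 to 0.21 around a difference of -0.13. UBE2C, the ubiquitin-conjugating enzyme of the complex, differed by -0.004 (95% interval -0.27 to 0.26).

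Spindle and midzone genes had 11 of 11 differences negative, with a median of -0.37. None passed the test. The 11 lay below 0 as well under both other ways of scaling the arrays, but each of these moves all genes by the same amount. HMMR, the closest of the 11 to 0, moved from -0.15 to -0.12 and -0.10, so no sign could have turned. For 5 of the 11, or 45.5% against 9.27% of all genes, all manganese arrays lay below all controls. These were PRC1, KIF20A, KIF23, KIF4A and KIF2C, and the gap between the groups ran from 0.02 for KIF2C to 0.05 for KIF20A. PRC1, which bundles the antiparallel microtubules of the midzone, was at 8.68, 8.76 and 8.96 with manganese, against 10.02, 8.99 and 9.28 in controls, a difference of -0.63 ± 0.24 (SE, limma adjusted p 0.357). Control 2 was 0.03 above the highest manganese array. KIF23, the kinesin of the centralspindlin complex, was at 4.81, 5.06 and 5.20 with manganese and 6.40, 5.22 and 5.32 in controls, a difference of -0.62 (95% interval -1.30 to 0.05). These are dim values, since the 40th percentile lay between 4.37 and 4.40 on the 6 arrays. KIF20A, a kinesin of cytokinesis, was at 8.20, 8.24 and 8.17 with manganese and 8.87, 8.29 and 8.56 in controls, a difference of -0.37 ± 0.15 (SE, limma adjusted p 0.373). Control 1 stood above the next control by 0.74 for PRC1, 1.07 for KIF23 and 0.87 for KIF4A, and by 0.31 for KIF20A. KIF4A, a chromosome-bound kinesin that works with PRC1, differed by -0.51, and KIF2C, a microtubule-depolymerising kinesin, by -0.26.

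The other 6 spindle genes had overlapping groups. DLGAP5, a microtubule-stabilising protein also called HURP, differed by -0.49, with the 3 manganese arrays spread from 4.96 to 5.99. NUSAP1, a spindle-associated protein, differed by -0.39, and its 3 probe sets ranged from -0.67 to -0.16. KIF11, the kinesin that separates the spindle poles, differed by -0.30, TPX2, the activator of AURKA, by -0.28, ANLN, the actin-binding protein anillin of the cleavage furrow, by -0.19, and HMMR, a hyaluronan-binding spindle protein, by -0.15. Against control 2 these last 4 and NUSAP1 were positive, from 0.06 for TPX2 to 0.33 for HMMR. The whole role was thus lower against control 1 and against control 3, with 11 of 11 negative in each, and mixed against control 2, with 6 of 11 negative.

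The centromere genes CENPA, CENPE and CENPF and the chromosome genes MKI67 and TOP2A all had negative differences. MKI67, which encodes the proliferation antigen Ki-67, had the most negative difference of all members. Its values were 6.73, 7.02 and 7.05 with manganese, against 8.03, 7.05 and 7.80 in controls. Manganese 3 and control 2 were level, while control 1 and control 3 were both higher than every manganese array. The difference was -0.69 ± 0.24 (SE, limma adjusted p 0.332), a 0.620-fold level, and its 5 passing probe sets ranged from -0.69 to -0.17. CENPF, a kinetochore protein of G2 and mitosis, showed the same layout, at 6.10, 6.36 and 6.57 with manganese and 7.14, 6.35 and 7.29 in controls. Its difference was -0.58 and, against control 2, -0.01. TOP2A, the topoisomerase that untangles sister chromatids, was at 7.48, 7.71 and 8.03 with manganese and 8.06, 7.49 and 8.16 in controls. Its difference was -0.16 (95% interval -0.64 to 0.32), and it was 0.25 higher than control 2. CENPA, the centromeric histone variant, and CENPE, a kinetochore kinesin, differed by -0.18 and -0.14.

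**Figure D4:**
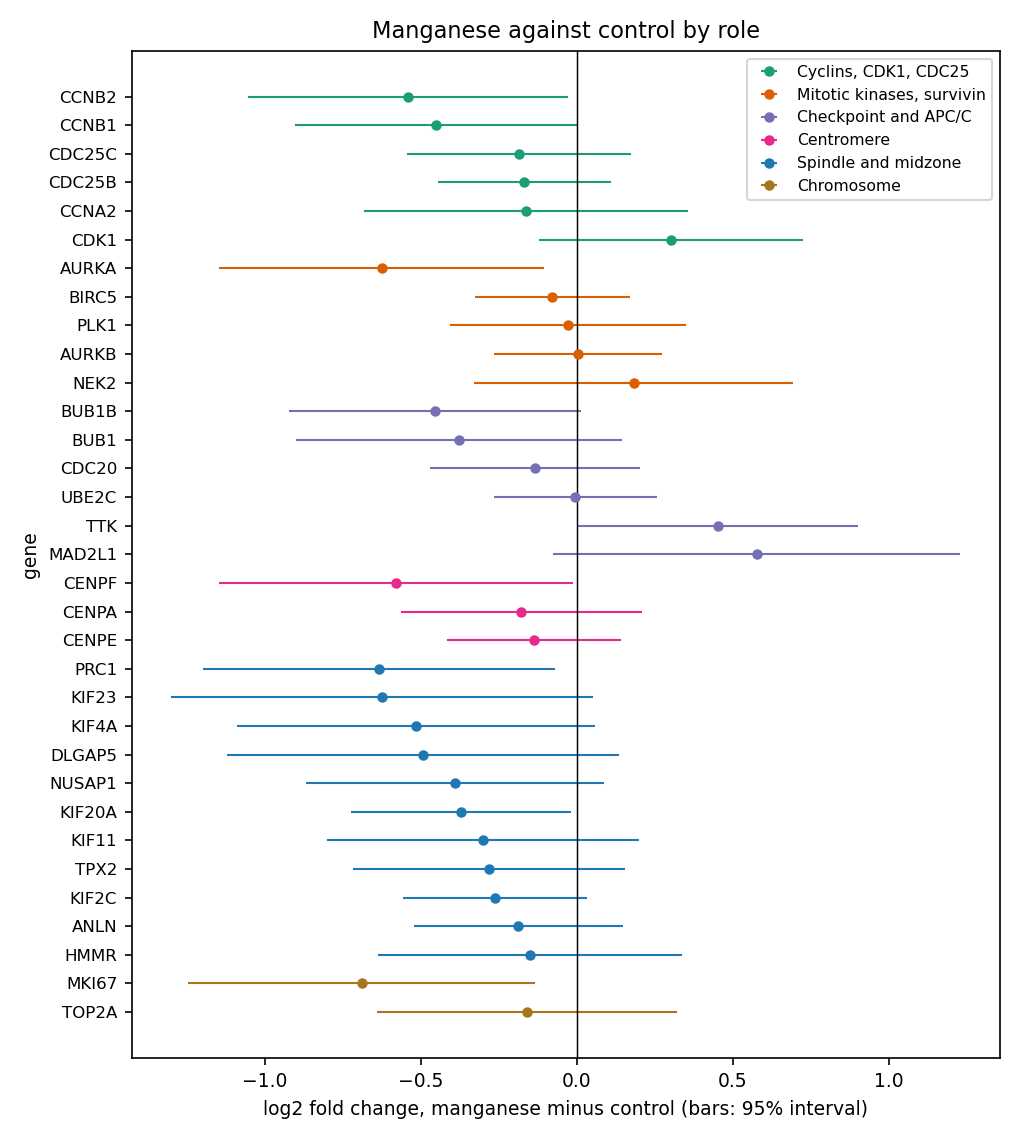
Log2 fold change of manganese minus control for the 33 members (3 arrays each), coloured by role and ordered by value within it, with 95% intervals from limma. All 11 spindle and midzone genes lie left of 0, and MAD2L1 at 0.58, TTK at 0.45 and CDK1 at 0.30 lie farthest to the right.

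In 3 further lists of cell division genes the medians lay nearer 0, and no gene passed the test. CKS1B alone of the genes named from them was called with arrays centred on housekeeping genes, and 12 of those named were called against control 1 alone. Of 50 other mitosis genes tested, 35 had negative differences, with a median of -0.11. The median was -0.26 against control 1, 0.04 against control 2 and -0.10 against control 3, and 46.0% of them had their controls in the order control 1, control 3, control 2, against 22.2% of all genes. CKS1B, a CDK-binding subunit, was at 9.73, 9.90 and 9.62 with manganese, against 11.14, 10.17 and 10.58, a difference of -0.88 ± 0.23 (SE, limma adjusted p 0.227). All 3 manganese arrays were below all controls, and the difference was -0.42 against control 2. ANAPC1, the largest subunit of the anaphase-promoting complex, differed by -0.74 and CDCA2, a phosphatase-targeting protein of chromatin, by -0.60. Against control 2 these were -0.24 and -0.21. CDCA2 is dim, and its value of 4.35 on manganese 1 lay below the 40th percentile of that array. The mean of its passing probe sets differed by -0.26. ZWINT, a kinetochore protein, differed by 0.39.

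Of 25 genes that control G2/M, 13 had negative differences and the median was -0.005. Of the regulators of CHR promoters named here, FOXM1 and RBL2 had negative differences, and MYBL2 and NFYB had positive ones. NFYB, RBL2 and MYBL2 had p-values among the smallest of this list, so they are extremes in either direction. Other subunits of MuvB, DREAM and NF-Y are not shown, so a direction for these regulators as a set cannot be read from them. FOXM1 was at 8.01, 8.08 and 8.04 with manganese and 8.26, 8.14 and 8.43 in controls, a difference of -0.24 with non-overlapping groups (95% interval -0.50 to 0.03). MYBL2, which encodes B-MYB, was at 10.19, 10.13 and 10.04 with manganese and 9.21, 9.90 and 9.74 in controls, a difference of 0.50 (limma adjusted p 0.333), also without overlap. NFYB, a subunit of the CCAAT-binding factor NF-Y, differed by 0.58 ± 0.13 (SE, limma adjusted p 0.189) and RBL2, which encodes the DREAM subunit p130, by -0.46. MASTL, the Greatwall kinase, differed by -0.59 and WEE1, which phosphorylates and inhibits CDK1, by -0.37. CDKN1A, which encodes the CDK inhibitor p21, differed by 0.45 (95% interval -0.04 to 0.94), and by 0.90 against control 1 but 0.04 against control 2. GADD45A, a growth-arrest gene, differed by 0.11.

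Genes of G1/S and DNA replication, 46 of which were tested, had a median of 0.01, with 20 negative and 26 positive. Against control 1, control 2 and control 3 the median was -0.15, 0.11 and 0.04. The group that licenses and copies DNA therefore had a median on either side of 0 depending on the control. So did the other mitosis genes, at 0.04 against control 2, and the G2/M control genes, at 0.007. The median of the 33 G2/M and mitosis genes was negative against each control. Against control 2 it was only -0.06, with 21 of the 33 negative. The genes with the smallest p were ORC6, a subunit of the origin recognition complex, at -0.69, and, in the other direction, the licensing factor CDT1 at 0.55, the thymidine kinase TK1 at 0.44 and UHRF1, which maintains DNA methylation, at 0.32. PCNA, the replication clamp, differed by -0.06 and MCM2, a subunit of the replicative helicase, by 0.28. The difference between the lists was not tested.

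**Figure D5:**
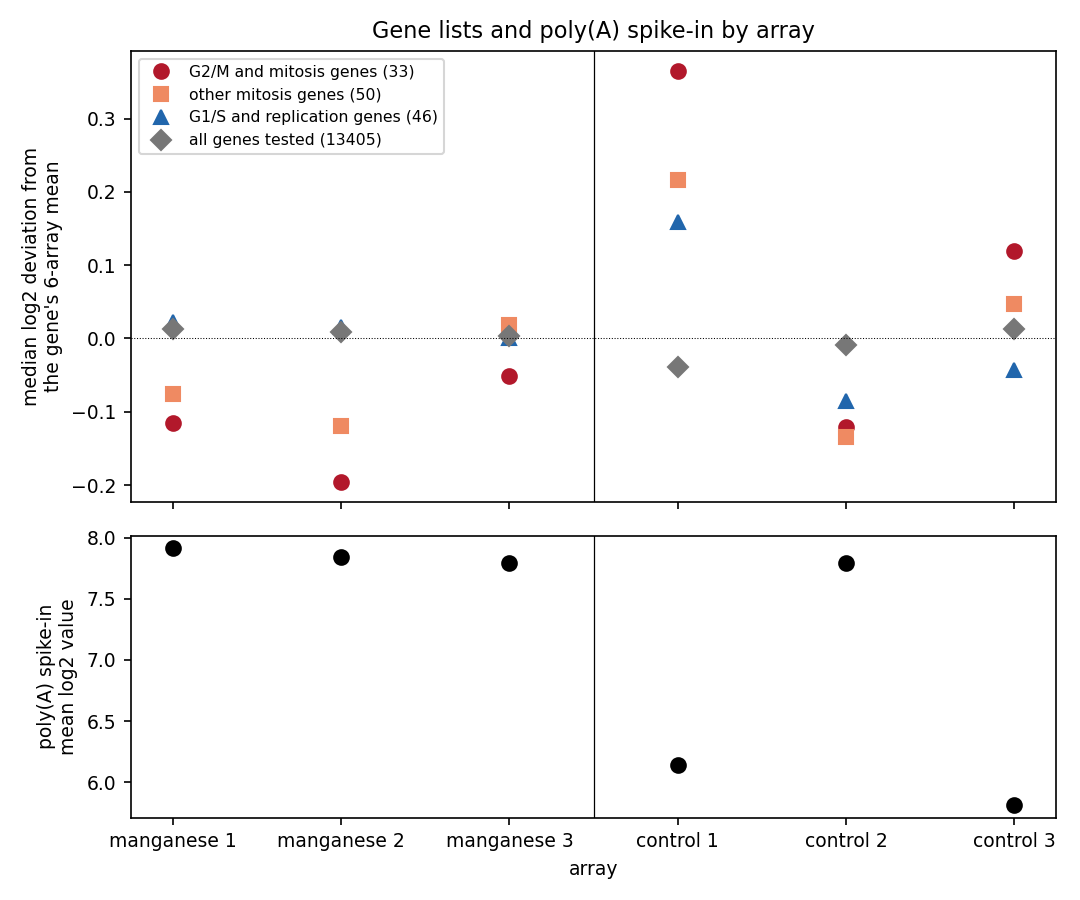
Upper panel, median log2 deviation from each gene's 6-array mean on each array for the 33 members, 50 other mitosis genes, 46 G1/S and replication genes and all 13405 genes. Lower panel, mean log2 value of the 12 poly(A) spike-in probe sets, 7.79 to 7.91 on 4 arrays, 6.14 on control 1 and 5.81 on control 3, the arrays on which the members are highest.

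Several members can be read from more than 1 probe set. The 33 members had 79 passing probe sets, of which 62 had negative differences. Of the 22 members with more than 1, the sign differed between probe sets for 5, namely CDC25B, NEK2, BIRC5, CDC20 and UBE2C, none of which had a difference larger than 0.20 in size. The probe sets spread by more than 0.5 for 3, namely MKI67, NUSAP1 and CDC20.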

How the data were processed

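The deposited values are log2 signals of 49395 probe sets on 6 one-colour arrays. The submitters' processing notes name RMA and Affymetrix Expression Console. RMA sets all arrays to 1 distribution, so a shift shared by most genes is removed. Tool versions were not given in the sources used, and arrays give no counting depth, so their number limits the precision. Gene names came from the platform annotation, which gave 1 symbol for 44988 probe sets.

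Probe sets had to exceed the 40th percentile of all values on an array, in 3 or more arrays, and the brightest stood for its gene. One limma model (version 3.58.1, R 4.3.3) covered all 13405 genes, with lmFit and eBayes and group as the only term, and p-values were adjusted over all of them by the Benjamini-Hochberg method. Tests are two-sided. The fit was also run on simulated data whose changes were larger than the difference of any member. That run does not show whether differences of the members' size would be found.

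The members, gene lists and rules were chosen with earlier results of these data known. Every member is named. Values of every array are given for the 10 members with the smallest p, for 8 chosen by role and for positive ones, and each further list gives its 4 smallest p and 8 fixed genes in all, of which 1 is not reported here. Alternatives changed the filter, the probe set, the variance model, the scaling, the replicate block and the arrays used. Deviations from the group means of same-numbered arrays correlated at -0.30, 0.15 and -0.27. Those of differently numbered arrays correlated at -0.44 to 0.50, so with 3 arrays in each group this check cannot tell whether the numbers pair the arrays.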

Additional observations from a re-analysis of the deposited data

How the results depend on the processing

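No member was called under the alternatives other than control 1 alone, which called 16. The members' median of -0.19 stayed negative, between -0.37 without control 2 and -0.16 without control 1 when 1 array was left out. It was -0.50, -0.06 and -0.30 against control 1, control 2 and control 3 alone, and -0.14 with arrays centred on housekeeping genes. Members with non-overlapping groups in either direction numbered 7. With 1 array left out, where fewer arrays make overlap rarer, they numbered 8 without manganese 1 (24.2%, against 24.6% of all genes) to 19 without control 2 (57.6%, against 38.8%). They numbered 28, 18 and 28 against control 1, control 2 and control 3 alone, or 84.8%, 54.5% and 84.8%, against 77.6%, 56.8% and 63.5% of all genes. Members at an unadjusted p under 0.05 numbered 7, or 21.2% against 12.8% of all genes. With other ways of summarising probe sets or of centring the arrays they numbered 12 or 13. This was 36.4% to 39.4% of the members, against 11.2% to 15.0% of all genes. With the replicate block they numbered 10, or 30.3% against 10.5% of all genes. The number of all genes called was 50 with arrays centred on the median, 236 with arrays centred on housekeeping genes and 3447, 5 and 45 against control 1, control 2 and control 3 alone. With 1 array left out it was 0 to 43 by limma, with 0 without any 1 manganese array or control 3, where 832 to 1223 genes had an unadjusted p under 0.05, and 43 without control 2. It was 6 with the replicate block, which rests on shared numbers alone and called no member. The cause of these moves was not tested. KIF23 did not pass a 60th percentile filter, and neither did CDCA2 of the other mitosis genes. Of the other named genes, CKS1B alone was called with arrays centred on housekeeping genes, and its difference was -1.39 against control 1 alone. Other mitosis genes had a median of -0.26 against control 1 and 0.039 against control 2, and -0.16 to -0.05 when 1 array was left out. The G1/S median was -0.15 against control 1 and -0.01 to 0.08 when 1 array was left out, and that of the G2/M control genes -0.06 to 0.01.

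Signs turned as follows. Against control 2 alone the differences were 0.15 for CCNA2, -0.0021 for AURKB, 0.0015 for CENPE, 0.10 for KIF11, 0.064 for TPX2, 0.068 for NUSAP1, 0.33 for HMMR, 0.12 for ANLN, 0.25 for TOP2A, 0.059 for WEE1 and 0.20 for PCNA. Against control 3 alone they were 0.062 for CCNA2, -0.12 for AURKB, 0.17 for CENPA and 0.068 for PCNA. Against control 1 alone they were 0.34 for PLK1, -0.053 for NEK2, 0.15 for CDC20, 0.16 for UBE2C and -0.11 for GADD45A. With arrays centred on housekeeping genes PLK1 was at 0.018 and UBE2C at 0.040, and with arrays centred on the median UBE2C was at 0.020. With the mean of the probe sets NEK2 was at -0.0067 and UBE2C at 0.043, and with the most variable probe set NEK2 was at -0.20 and BIRC5 at 0.065. With 1 array left out, CCNA2 lay between -0.32 and 0.11, AURKB between -0.059 and 0.069, PLK1 between -0.21 and 0.11, NEK2 between -0.063 and 0.31, UBE2C between -0.088 and 0.048, GADD45A between -0.019 and 0.23 and PCNA between -0.18 and 0.13.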
